A study of Homo sapiens with 20 samples.

Results

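RUNX1 binding near 10 genes of macrophage lipid handling and its nuclear receptors was followed after knockdown of the transcription factor PU.1. The genes were the receptors PPARG, NR1H3, RXRA and RARA, the scavenger receptors CD36 and MSR1, the lipid droplet protein gene PLIN2, the efflux transporters ABCA1 and ABCG1, and the apolipoprotein gene APOE. All peaks within 50 kb of the GRCh38 RefSeq span of a gene were taken, whatever their change, which gave 50 of the 26642 RUNX1 peaks. Peaks are numbered within each gene's window in the order of their coordinates. The cells were of the THP-1 line, established from a human acute monocytic leukemia, in which doxycycline switched on an integrated short hairpin RNA (shRNA). The knockdown line carried an shRNA against PU.1 and the control line a scramble shRNA, and doxycycline was given to both. Of the 20 samples, 12 were chromatin immunoprecipitations with sequencing (ChIP-seq) for RUNX1, 6 per group, and the 8 IgG samples were not analysed here. The experiment was run in 2 batches, the first with 3 libraries of the control line and 2 of the knockdown line, the second with 3 and 4.

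PPARG and NR1H3, which encodes the liver X receptor alpha, are lipid-sensing nuclear receptors that bind DNA together with RXRA as the shared partner, and RARA is the retinoic acid receptor alpha. In macrophages these receptors are known to drive genes of lipid uptake, storage and cholesterol export. RUNX1 and PU.1 are transcription factors of the myeloid lineage that often occupy the same regulatory elements.

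Promoter windows were examined first, because a peak lay over a start of a member gene at 4 of the 10 genes: CD36, NR1H3, RARA and PLIN2. The windows, from RefSeq on GRCh38.p14, run 5′ to 3′ on the strand of the gene and hold 300 bases, with the start at base 251. Capitals mark the RUNX core TGTGGT or its reverse complement ACCACA, and the ETS core GAGGAA, of the kind PU.1 binds, or its reverse complement TTCCTC. The CD36 window (chr7:80638392-80638691, plus strand) is shown for the member peak with the deepest loss, the NR1H3 window (chr11:47257746-47258045, plus strand) for a gain at a start, and those of RARA (chr17:40317995-40318294, plus strand) and PLIN2 (chr9:19127443-19127742, minus strand) for start peaks that were not called.
CD36: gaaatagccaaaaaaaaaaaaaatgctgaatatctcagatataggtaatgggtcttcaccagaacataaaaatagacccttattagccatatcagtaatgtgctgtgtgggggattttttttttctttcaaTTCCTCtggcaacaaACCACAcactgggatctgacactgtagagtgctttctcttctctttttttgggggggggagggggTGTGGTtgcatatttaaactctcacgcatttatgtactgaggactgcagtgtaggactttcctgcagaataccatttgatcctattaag
NR1H3: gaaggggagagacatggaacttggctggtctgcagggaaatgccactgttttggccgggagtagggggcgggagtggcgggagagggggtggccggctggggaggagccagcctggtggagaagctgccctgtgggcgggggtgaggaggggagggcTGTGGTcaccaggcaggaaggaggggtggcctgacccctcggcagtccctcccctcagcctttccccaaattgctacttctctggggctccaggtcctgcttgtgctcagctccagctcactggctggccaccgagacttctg
RARA: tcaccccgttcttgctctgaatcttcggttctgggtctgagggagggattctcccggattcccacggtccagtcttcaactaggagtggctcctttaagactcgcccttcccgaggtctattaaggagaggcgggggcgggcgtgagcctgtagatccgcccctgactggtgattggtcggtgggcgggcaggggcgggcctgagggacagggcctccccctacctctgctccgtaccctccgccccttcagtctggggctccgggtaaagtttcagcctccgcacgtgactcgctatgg
PLIN2: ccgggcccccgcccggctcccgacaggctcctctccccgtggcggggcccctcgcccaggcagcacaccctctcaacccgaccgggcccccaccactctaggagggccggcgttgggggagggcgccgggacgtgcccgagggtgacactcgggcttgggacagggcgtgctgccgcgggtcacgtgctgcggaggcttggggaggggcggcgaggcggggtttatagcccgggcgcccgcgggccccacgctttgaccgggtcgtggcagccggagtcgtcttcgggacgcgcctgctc
The CD36 window held 2 RUNX cores, at bases 147 to 152 and 212 to 217, and 1 ETS core at bases 132 to 137, none of which overlap. In the NR1H3 window there was 1 RUNX core, at bases 158 to 163, and no ETS core. The same NR1H3 peak also covers the window of a second start (chr11:47257457-47257756, not printed), which held an ETS core at its bases 287 to 292, running into the printed window, and no RUNX core. A second CD36 start under the same peak (window chr7:80638266-80638565, not printed) shares the ETS core and the first RUNX core of the printed window. Neither core was found in the RARA and PLIN2 windows. These cover only part of their peaks, which are 1821 and 1784 bp wide, and the rest was not searched. Of the 26 windows of the member genes 6 held a RUNX core, and 3 of these were under a peak. Among the 6, overlapping PPARG windows hold the same core, as the CD36 windows do. The windows are thus not separate, and their share was not tested against that of all windows. Over all 34943 RefSeq promoter windows of this length, 13.09% held a RUNX core and 27.9% an ETS core on either strand. The palindrome TTGCGCAA bound by CEBP factors and the nuclear receptor hexamer AGGTCA, held by 0.1517% and 13.83% of all windows, were in none of the 4 sequences. Such matches describe letters in a window and not bound sites.

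Counts in peaks totalled 630247 to 1199004 in the control libraries and 938745 to 1719840 in the knockdown libraries, and all levels below are counts divided by the size factor of the library (normalised counts). In control replicate 1, peaks that hold a gene start were 0.345 higher on the log2 scale, relative to the other peaks, than over all libraries. This value was -0.129 to -0.0177 in the other 5 control libraries. In the knockdown libraries it was 0.118 and 0.188 in batch 1 and -0.186 to 0.0398 in batch 2. Values without control replicate 1 are given where it changes a call. PU.1 and RNA levels are not measured by this assay, so neither the knockdown nor the identity of the cells was checked here. Size factors centre the fold changes near 0, so a change in RUNX1 binding shared by most peaks would not be seen. The 6 libraries of a group came from separate immunoprecipitations of 1 line, and p-values measure the spread between these.

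RUNX1 signal changed in both directions near these genes. A peak was called gained or lost when the DESeq2 fit over all peaks, with batch as covariate, gave an adjusted p under 0.05 and a fold change over 1.1. Of the 50 member peaks 21 were called (42.0%), as were 42.0% of all peaks. There were 14 gained peaks (28% of the members, 21.3% of all peaks) and 7 lost peaks (14%, against 20.7%), and 29 were not called. The median log2 fold change was 0.028 over the members and -0.025 over all peaks, with members from -1.53 to 1.82. A fold change over 2 was reached by 7 of the called peaks (14% of the members, 17.1% of all peaks): gains at ABCG1, APOE, PPARG, RARA and NR1H3, and losses at CD36 and ABCA1. At an adjusted p under 0.01, 11 of the 50 were called (31.6% of all peaks). By edgeR 23 were called (47.1% of all peaks), among them all 21. Centred on the median of the peaks within 5 Mb on either side, 19 were called (41.5% of all peaks), 17 of the 21 among them. Of the 37 member peaks with at least 10 counts in every library, 10 were called when only such peaks were tested (32.2% of all such peaks). Besides the calls that single omissions end, 7 uncalled peaks were called in at least 1 of the 12 fits without a library. The share of this over all peaks was not taken.

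**Figure D1:**
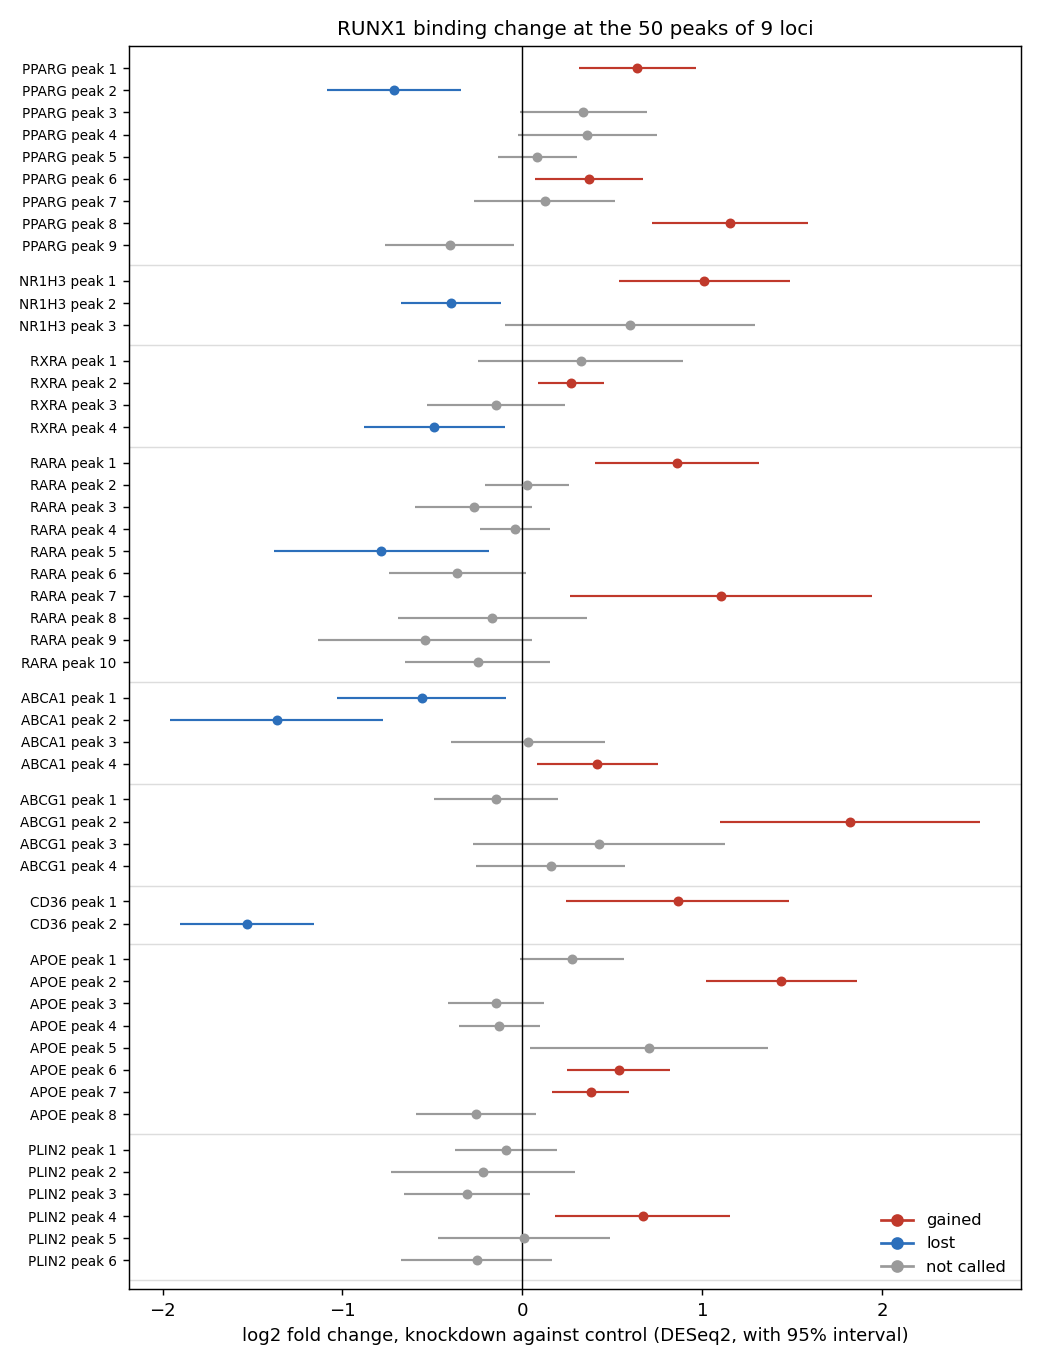
Log2 fold change of normalised RUNX1 counts, knockdown against control, for each of the 50 member peaks by gene; points are DESeq2 estimates and bars 95% intervals. The 14 gained and 7 lost peaks lie on both sides of 0, and the CD36, ABCA1, PPARG, RXRA, RARA and NR1H3 loci hold both kinds.

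CD36, the scavenger receptor that takes up oxidised lipoproteins and fatty acids, showed the deepest loss, at a peak over an annotated start of the gene (chr7:80638002-80638874, the sequence printed first). Control libraries held 52.0, 68.7 and 71.5 normalised counts (lowest, median, highest) and knockdown libraries 10.96, 22.6 and 31.7. Every knockdown library was below every control library. The means were 65.2 ± 7.35 and 22.8 ± 7.11 (SD, n = 6 each), a log2 fold change of -1.53 ± 0.19 (SE) and a 2.89-fold loss (DESeq2 adjusted p = 5.42e-14). It was lost in batch 1 (-2.07, adjusted p = 4.97e-06) and in batch 2 (-1.20, adjusted p = 4.59e-05). The other CD36 peak (chr7:80584705-80585212), 16995 bp outside the gene, moved the other way. Its counts were 3.90, 9.61 and 16.8 in control and 15.1, 17.8 and 23.7 in knockdown libraries, so the groups overlapped slightly. The gain was 0.86 ± 0.32 on the log2 scale (adjusted p = 0.0181), and the call was lost without control replicate 1 or knockdown replicate 1 (adjusted p = 0.0567 to 0.0904). MSR1, which encodes the class A scavenger receptor, had no peak in its window. The nearest of the 1366 peaks on chromosome 8 was 1053 kb away.

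NR1H3 gained signal at its start (chr11:47257278-47258197, the second sequence printed). Control libraries held 10.4, 23.3 and 25.8 normalised counts and knockdown libraries 28.0, 37.1 and 63.9, with no overlap. Means of 20.8 ± 6.07 and 41.9 ± 13.2 (SD, n = 6 each) gave a log2 fold change of 1.01 ± 0.24 (adjusted p = 0.000163). The direction was shared by batch 1 (1.33) and batch 2 (0.77), and the call was made within batch 1 (adjusted p = 0.0297) but not batch 2 (adjusted p = 0.0549). The strongest NR1H3 peak (chr11:47268696-47270057) also covers the start of MADD, the gene at the 3′ side. It held 63.3, 85.4 and 104 counts in control and 52.2, 63.4 and 73.6 in knockdown libraries, which overlapped. The loss of -0.40 ± 0.14 (adjusted p = 0.0149) was no longer called without knockdown replicate 1 or control replicate 6 (adjusted p = 0.0613 to 0.119). Peaks within 5 Mb of it had a median log2 fold change of -0.29, and after centring on that median the adjusted p was 0.585. The remaining peak, in MADD and with 9.27 ± 4.22 counts in control libraries, was not called (0.60 ± 0.35, adjusted p = 0.168), although centring gave it an adjusted p of 0.0305.

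PPARG, the regulator of lipid storage genes in macrophages and adipocytes, had 9 peaks, of which 3 were gained and 1 was lost. The lost peak lay within the gene (chr3:12325447-12326436). It held 34.6, 47.4 and 51.6 normalised counts in control and 21.9, 26.9 and 35.0 in knockdown libraries, which did not overlap within either batch. Its log2 fold change was -0.72 ± 0.19 (adjusted p = 0.000741). A peak 10019 bp outside the gene, named after its values were seen, was gained (0.64 ± 0.17, adjusted p = 0.000565), with 30.0 to 50.6 counts in control and 58.2 to 61.8 in knockdown libraries.

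Nearer to the PPARG starts, the strongest and the nearest peak were not called. The strongest peak of the locus (chr3:12353827-12355503) had 115, 127 and 156 normalised counts in control and 119, 144 and 165 in knockdown libraries. The groups overlapped almost fully, and the difference was 0.08 ± 0.11 (adjusted p = 0.584, 95% interval -0.14 to 0.30). The peak nearest to a start, 360 bp away, differed by 0.36 ± 0.20 (adjusted p = 0.127), and was called gained without control replicate 2 (adjusted p = 0.0343). Directly beside the strongest peak, another gained peak (chr3:12356104-12357007) reached 0.37 ± 0.15 (adjusted p = 0.0394). That call was lost without any 1 of 7 libraries, control replicates 3, 4 and 6 and knockdown replicates 1, 3, 4 and 5 (adjusted p = 0.0548 to 0.186), and after regional centring (adjusted p = 0.108). The other 3 uncalled PPARG peaks ranged from -0.41 to 0.34.

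RXRA, the shared dimer partner, held the strongest of all 50 peaks by count (chr9:134403421-134405072, within the gene, mean 190.6). Control libraries had 155, 176 and 186 normalised counts and knockdown libraries 186, 204 and 230. Within each batch the groups did not overlap, but the gain was small, 0.27 ± 0.09 (adjusted p = 0.0109). Without knockdown replicate 1 the adjusted p was 0.0662, and after regional centring it was 0.0869. Beyond the 3′ end of the gene, a peak at chr9:134443015-134444178 was lost (-0.49 ± 0.20, adjusted p = 0.0360), from 28.8, 38.7 and 49.4 to 22.6, 25.6 and 35.0 counts. The groups overlapped, and the call was lost without any 1 of 9 libraries (adjusted p = 0.0507 to 0.102), namely control replicates 1, 2, 4 and 5 and knockdown replicates 1, 2, 3, 5 and 6. Of the other 2 RXRA peaks, the one nearest to the start, 1899 bp away, differed by 0.32 ± 0.29 (adjusted p = 0.390), and the other by -0.15 ± 0.20 (adjusted p = 0.579).

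RARA, the retinoic acid receptor, had the most peaks, 10, with 2 gained and 1 lost. Its start peak (chr17:40317350-40319170, the third sequence printed) was not called. Control libraries held 61.1, 65.1 and 83.2 normalised counts and knockdown libraries 40.2, 52.2 and 76.7, a difference of -0.27 ± 0.16 (adjusted p = 0.180, 95% interval -0.60 to 0.05). Without knockdown replicate 1 it was called lost (-0.45, adjusted p = 0.0266). The strongest RARA peak (chr17:40322063-40323735) held 139, 182 and 193 against 149, 171 and 186 counts and differed by -0.04 ± 0.10 (adjusted p = 0.783). The range of the knockdown libraries lay within that of the control libraries. The gained peak with the smallest adjusted p lay 25033 bp outside RARA, in WIPF2 (chr17:40283547-40284147). It rose from 12.9, 16.1 and 22.5 to 23.7, 34.4 and 38.2 counts with no overlap (0.86 ± 0.23, adjusted p = 0.00100). Within the gene, a small peak at chr17:40324042-40324554 was lost (-0.78 ± 0.31, adjusted p = 0.0269), with 8.67, 16.9 and 19.9 counts in control and 8.22, 9.12 and 10.6 in knockdown libraries. This overlap came from control replicate 4, and the call was lost without any 1 of 5 libraries (adjusted p = 0.0509 to 0.105), control replicates 5 and 6 and knockdown replicates 1, 2 and 5. The other gain, at a peak with 5.45 ± 1.92 counts in control libraries (1.1 ± 0.43, adjusted p = 0.0269), was also lost without any 1 of 5 libraries (adjusted p = 0.050 to 0.212), control replicates 3 and 4 and knockdown replicates 2, 3 and 4. The remaining 5 uncalled peaks ranged from -0.54 to 0.03. The lowest of these, at the start of GJD3-AS1, held 57.2 counts in control replicate 1 and 11.5 to 24.3 in the other control libraries. It differed by -0.22 without that library (adjusted p = 0.579) and was called lost without control replicate 3 (adjusted p = 0.0369). Another, within RARA, was called lost without knockdown replicate 6 (adjusted p = 0.0452), and that at the start of CDC6, a replication gene, differed by 0.03 ± 0.12.

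PLIN2 encodes perilipin 2, which coats lipid droplets, and 1 of its 6 peaks was called. The peak over its start (chr9:19126733-19128516) held 40.0, 60.2 and 103 normalised counts in control and 39.6, 49.6 and 59.4 in knockdown libraries. The highest value was that of control replicate 1, and the other control libraries reached 61.1. The difference was -0.31 ± 0.18 (adjusted p = 0.155), and without control replicate 1 the adjusted p was 0.498. Without control replicate 2 it was 0.0248, and the peak was then called lost (-0.43). A peak 15129 bp outside the gene (chr9:19142621-19143570) was gained (0.67 ± 0.25, adjusted p = 0.0202), from 11.7, 14.6 and 28.8 to 22.6, 26.4 and 31.7 counts. The groups overlapped, and the call was lost without control replicate 1 (adjusted p = 0.0582) and without control replicate 6 or knockdown replicates 2 or 4 (at most 0.0677). The strongest PLIN2 peak, at the start of HAUS6, differed by -0.09 ± 0.14 (adjusted p = 0.645), and the other 3 by -0.26 to 0.01.

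ABCA1, which exports cholesterol to lipid-poor apolipoprotein, lost signal inside the gene at chr9:104829855-104830493, 97662 bp from its start. Control libraries held 13.9, 23.6 and 26.5 normalised counts and knockdown libraries 4.75, 8.44 and 12.8. Every knockdown library was lower, and the means fell from 21.8 ± 5.44 to 8.33 ± 3.15 (SD, n = 6 each), by -1.37 ± 0.30 on the log2 scale (adjusted p = 4.03e-05). Near the start (chr9:104926244-104927204, 951 bp away) the difference was 0.03 ± 0.22 (adjusted p = 0.928, 95% interval -0.40 to 0.46). Control counts there were 20.8, 34.0 and 65.0, the highest in control replicate 1, and knockdown counts 18.5, 36.9 and 47.5, so that the groups overlapped. The strongest peak, 39818 bp before the start (chr9:104967973-104969154), was gained (0.42 ± 0.17, adjusted p = 0.0388), from 34.0, 44.2 and 59.0 to 47.5, 57.0 and 71.4 counts. This call was lost without any 1 of 7 libraries (adjusted p = 0.0585 to 0.169), control replicates 2, 3, 4 and 5 and knockdown replicates 2, 5 and 6. The other loss, in NIPSNAP3B (-0.56 ± 0.24, adjusted p = 0.0472), was lost as a call without any 1 of 9 libraries (adjusted p = 0.0528 to 0.148), control replicates 3, 4 and 6 and all 6 knockdown replicates, and after centring (adjusted p = 0.0616).

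ABCG1, which passes cholesterol on to high-density lipoprotein, had the largest gain of the 50 peaks, at a weak peak 6025 bp outside the gene (chr21:42193054-42193664). Control libraries held 2.30, 6.07 and 8.21 normalised counts and knockdown libraries 13.4, 20.5 and 26.5. The raw counts were 2 to 7 and 13 to 40, and the groups did not overlap. Means of 5.78 ± 2.17 and 20.5 ± 5.70 (SD, n = 6 each) gave a log2 fold change of 1.82 ± 0.37 (adjusted p = 6.34e-06, 95% interval 1.1 to 2.54). It was gained in batch 1 (2.46, adjusted p = 0.00928) and in batch 2 (1.38, adjusted p = 0.0214). The other 3 ABCG1 peaks were not called, with log2 fold changes from -0.15 to 0.42. Among these, the strongest (chr21:42188108-42189122) held 31.6, 51.7 and 60.7 counts in control and 34.9, 43.5 and 52.1 in knockdown libraries (-0.15 ± 0.18, adjusted p = 0.534).

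APOE, whose product carries cholesterol on lipoproteins, had 8 peaks, of which 3 were gained and none was lost. The largest gain lay 38628 bp outside the gene, in NECTIN2, which encodes a cell adhesion protein (chr19:44866501-44867168). Normalised counts of 9.10, 16.4 and 24.6 in control rose to 44.7, 49.1 and 55.9 in knockdown libraries. The groups were well apart, with means of 17.3 ± 5.81 and 49.2 ± 3.78 (SD, n = 6 each) and a log2 fold change of 1.44 ± 0.21 (adjusted p = 4.14e-10). The gain was called in batch 1 (1.70, adjusted p = 0.00305) and in batch 2 (1.26, adjusted p = 0.000194). On the other side of APOE, the strongest peak of the locus lay over the start of APOC2, the cofactor of lipoprotein lipase (chr19:44945618-44947570). It rose from 108, 117 and 139 to 142, 152 and 191 counts, with no overlap (0.38 ± 0.11, adjusted p = 0.00200). A peak at chr19:44924316-44926308, named after its values were seen, was gained by 0.53 ± 0.15 (adjusted p = 0.00102), also with no overlap within either batch. The peak nearest to an APOE start, 13318 bp away (chr19:44919719-44920505), was not called, at 0.70 ± 0.34 (adjusted p = 0.0805), and its groups overlapped, with 5.27 to 15.6 and 8.22 to 24.2 counts. It was called gained by edgeR (adjusted p = 0.0388) and, by DESeq2, without knockdown replicate 1, control replicate 4 or knockdown replicate 5 (adjusted p = 0.0184 to 0.0493). The other 4, among them that at the start of TOMM40, ranged from -0.26 to 0.28.

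**Figure D2:**
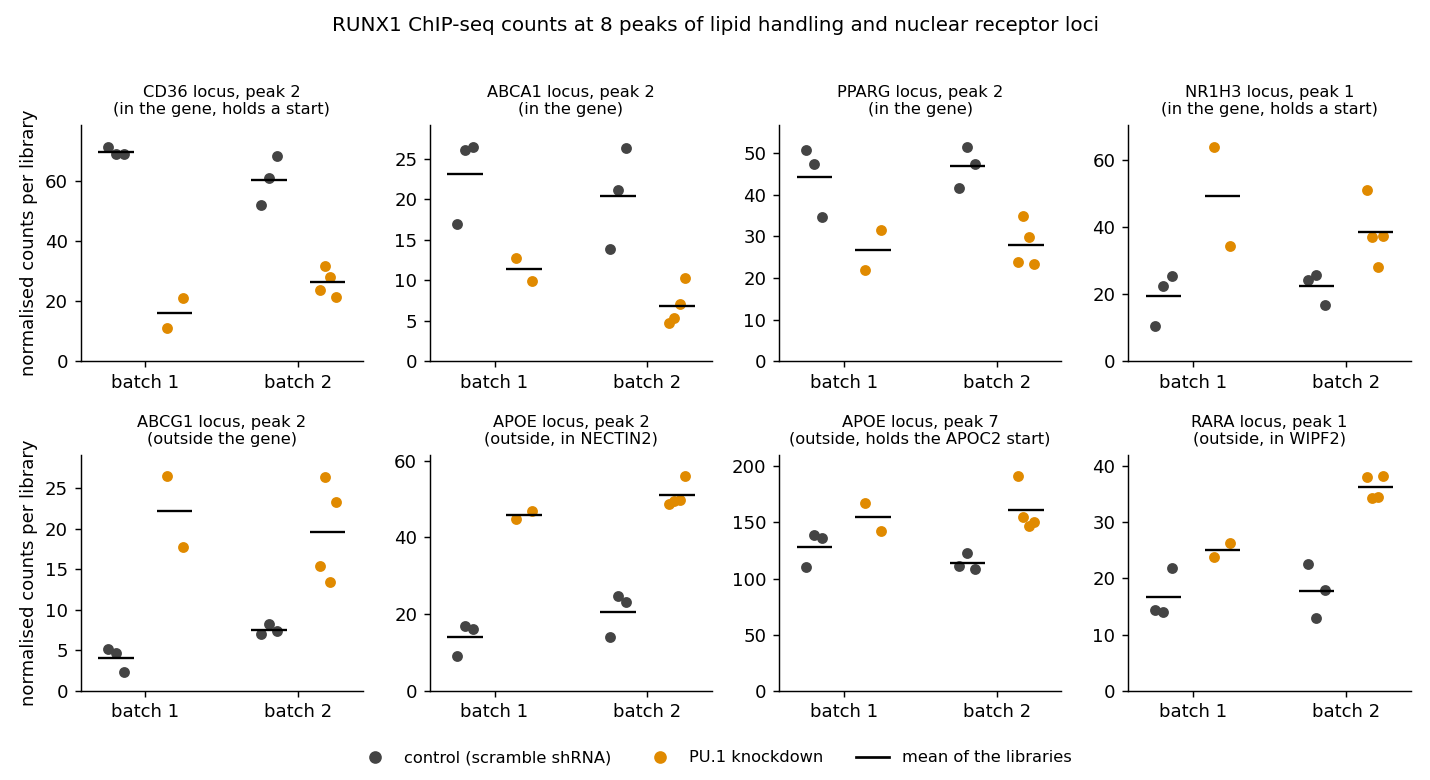
Normalised RUNX1 counts per library for 8 member peaks, by group and batch; each point is 1 library and each line a group mean. All 8 are among the 12 member peaks without overlap in either batch (24% of the members, 28.3% of all peaks). CD36 peak 2, the ABCA1 peak and PPARG peak 2 are lower in every knockdown library of each batch, and NR1H3 peak 1, ABCG1 peak 2, APOE peaks 2 and 7 and RARA peak 1 are higher.

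Gains and losses were also counted by position. Peaks that hold a RefSeq start of any gene numbered 14, with 2 gained (14.3%) and 2 lost (14.3%). Over all peaks with a start 3.74% were gained and 18.1% lost. The gained 2 were those of NR1H3 and APOC2, and the lost 2 those of CD36 and MADD. Among the 36 member peaks without a start, 12 were gained (33.3%) and 5 lost (13.9%), against 25.6% and 21.4% of all such peaks. Within 10 kb of the gene spans, 5 of 29 peaks were gained and 7 lost. Of all peaks at any distance 21.3% were gained and 20.7% lost, and the shares within 10 kb of all genes were not taken. These counts are a description of the 10 loci and were not tested.

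**Figure D3:**
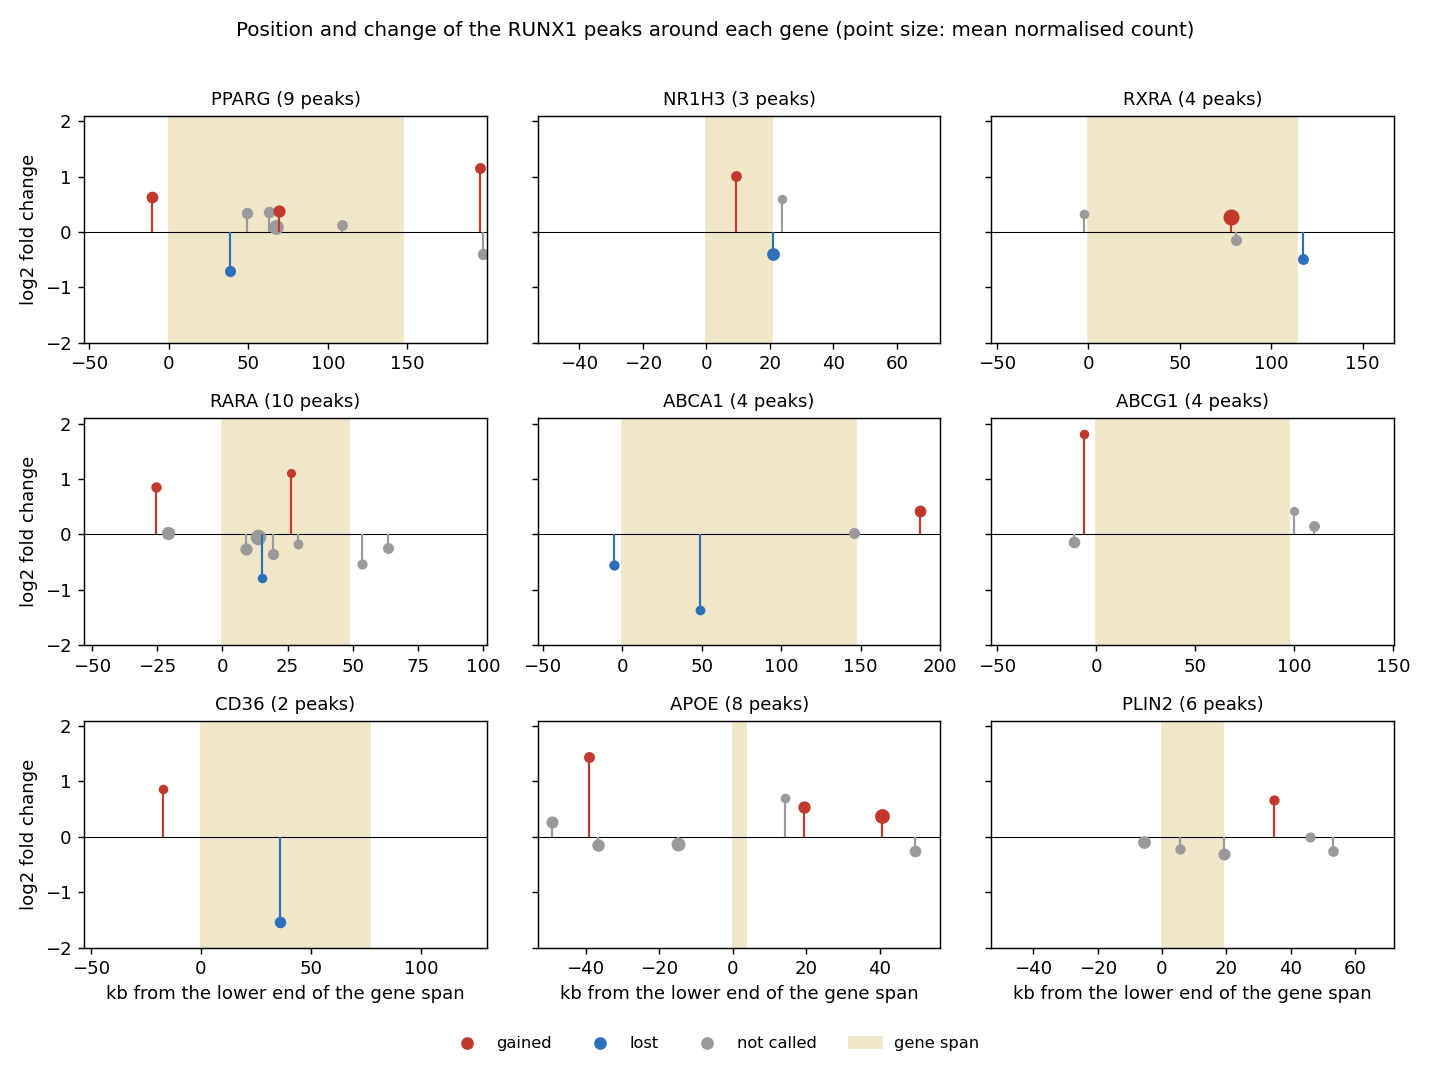
Log2 fold change of each member peak against its distance in kb from the lower end of the gene span, 1 panel per gene, with the gene shaded and the point size set by the mean normalised count. The lost peaks of CD36 and PPARG and the larger loss of ABCA1 lie within the shaded spans, and the largest gains of ABCG1 and APOE outside them.

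Peaks of the same locus had unequal fold changes, also where they lay close together. For pairs chosen after their values were seen, the ratio of the counts of both peaks was taken within each library, which does not depend on the scaling between libraries. For the gained NECTIN2 peak and its neighbour 1299 bp away (-0.15 ± 0.14, adjusted p = 0.399), the ratio of the first to the second was 0.149 to 0.333 in control and 0.594 to 0.845 in knockdown libraries. The distal CD36 peak, 52790 bp from the start peak, had 0.0545 to 0.243 of its counts in control and 0.563 to 2.17 in knockdown libraries. Neither ratio overlapped between the groups, but the choice of the pairs by their changes favours this, so it is not separate support. Ratios of peak pairs in general were not taken.

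Summed over the peaks of a locus, the log2 ratio of knockdown to control lay farthest from 0 at CD36. Its 2 peaks together held 60.7 to 85.6 normalised counts in control and 34.7 to 49.5 in knockdown libraries, a log2 ratio of the group means of -0.92, averaged over the batches. The 8 APOE peaks held 479 to 507 against 546 to 633 counts (0.22), with no overlap. For the other 7 loci with peaks the log2 ratio lay between -0.098 at PLIN2 and 0.22 at ABCG1, and the groups overlapped in at least 1 batch. Without its strongest peak, the log2 ratio of a locus was 0.93 at CD36, 0.94 at NR1H3, 0.54 at ABCG1, -0.24 at RXRA and -0.41 at ABCA1, so that CD36 and RXRA changed sign. No test was made on these sums.

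Both batches were compared next, since the groups were not balanced over them. Within batch 1, 4 member peaks were called (8% of the members, 12% of all peaks), 3 gained (5.38% of all peaks) and 1 lost (6.61%). Batch 2 gave 12 (24%, against 25.8%), 7 gained (12.8% of all peaks) and 5 lost (13.1%). The called peaks in both were those at CD36, ABCG1 and APOE described above, and 10 peaks were called in the fit over both batches alone. The sign was the same in both batches for 42 of the 50 peaks, and the share over all peaks was not taken. It was also the same for all 21 called ones, but a fit over both batches favours peaks of equal sign. In both batches all knockdown libraries lay above all control libraries at 9 peaks (14.4% of all peaks) and below them at 3 (13.9%), and these 12 (24%, against 28.3% of all peaks) were all called. A difference of the effect between batches passed at no member peak after adjustment, by DESeq2 or edgeR (0.0% of all peaks by DESeq2). At an unadjusted p under 0.05 there were 2 (4%, against 2.51%): the CD36 start peak and a PLIN2 peak within the gene, which had log2 fold changes of 0.65 in batch 1 and -0.79 in batch 2. Both had an adjusted p of 0.9999 for the difference by DESeq2.

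**Figure D4:**
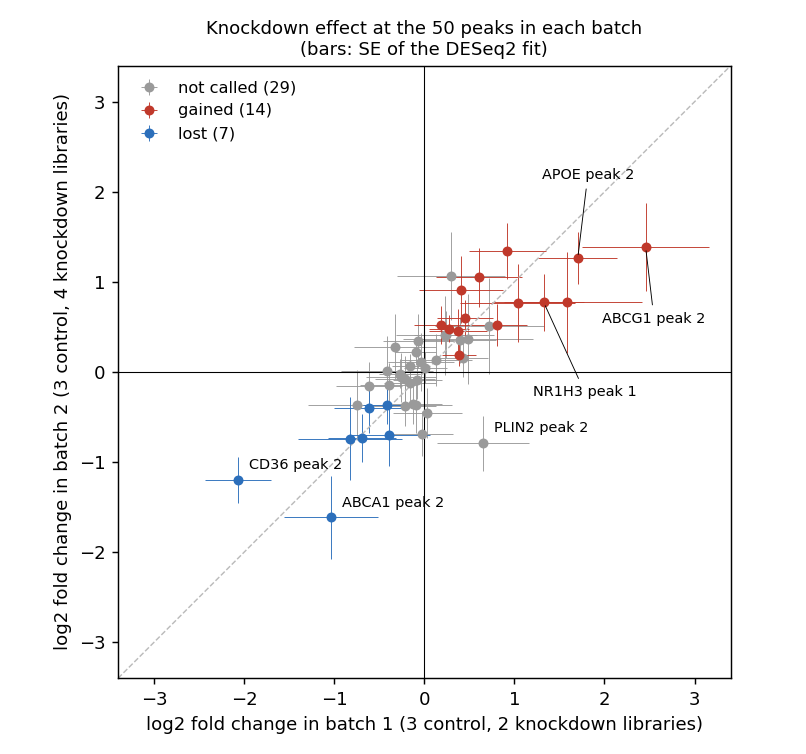
Log2 fold change, knockdown against control, of the 50 member peaks in batch 1 (x axis) and batch 2 (y axis), with bars of 1 standard error. All 21 called peaks lie in the quadrants of equal sign, which the call over both batches favours. CD36 is lowest in batch 1 and ABCG1 highest in batch 1 (-2.07 and 2.46).

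The wider pathway was read from 3 lists without the members, chosen with earlier results of these data known. Within 50 kb of their 59 genes lay 261 further peaks, of which 51 were gained and 51 lost (39.1%, against 42.0% of all peaks). Of 104 peaks at 22 other nuclear receptors and coregulators 17 were gained and 20 lost. Lipid uptake and storage genes (18 of 20 with a peak) had 20 gained and 17 lost of 90 peaks. Cholesterol efflux and receptor target genes (16 of 17 with a peak) had 14 of each among 67. The median log2 fold changes were 0.0045, 0.0088 and -0.096 in that order, against -0.025 over all peaks.

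Among the other receptors, a peak in RORA, an orphan receptor gene of the retinoid-related family, fell from 25.1 to 53.7 normalised counts over the control libraries to 3.29 to 9.50 over the knockdown libraries (-2.77 ± 0.30, adjusted p = 2.68e-18). Signal 31028 bp from NR1H2, the gene of liver X receptor beta, fell by -1.72 ± 0.19 (adjusted p = 1.78e-17). That 10404 bp from PPARA, a receptor for fatty acids, rose by 1.63 ± 0.23 (adjusted p = 3.27e-11). For uptake, the peak 44298 bp from VLDLR, a lipoprotein receptor gene, had 44.2 to 93.3 counts in control and 13.1 to 26.1 in knockdown libraries (-1.75 ± 0.19, adjusted p = 4.96e-18). A peak near SCARB1, the receptor for high-density lipoprotein, rose (1.34 ± 0.21, adjusted p = 4.98e-09). Of the efflux and target genes, NPC1, which moves cholesterol out of lysosomes, lost signal within the gene, from 94.9 to 143 counts in control to 44.8 to 58.8 in knockdown libraries (-1.25 ± 0.14, adjusted p = 3.06e-18). ANGPTL4, an inhibitor of lipoprotein lipase, gained it 7992 bp away (1.81 ± 0.26, adjusted p = 7.56e-11), and TREM2, a lipid-sensing receptor of macrophages, lost it within the gene (-1.18 ± 0.22, adjusted p = 6.74e-07). These 8 peaks all showed no overlap between the groups within either batch (28.3% of all peaks) and were called without any 1 library. They were picked for a small adjusted p, which favours both traits, so neither is separate support.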

How the data were processed

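THP-1 ChIP-seq libraries for RUNX1 were analysed from the table of raw counts per peak deposited by the authors. As the methods describe, the authors used bowtie2 for alignment, dropped duplicate reads and those off the primary chromosomes, found peaks with macs2 and an IDR filter across the batches, and joined the peak sets of control and knockdown cells, over which featureCounts tallied the reads, so the peaks were called on the libraries compared here. The methods name GRCm38, and the processing notes GRCm38 and GRCh38. The coordinates were read as GRCh38, since 19.8% of peaks held a RefSeq start in place and 1.39% to 1.86% after shifts of 100000 to 1000000 bp. Peak length, also deposited by the authors, was not used in a test.

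DESeq2 1.42.0 (R 4.3.3) was run on all 26642 peaks with a batch term and size factors by the median of ratios, and p-values were adjusted by Benjamini-Hochberg over all peaks. Scripts were tested on simulated data. Alternatives were edgeR 4.0.16 (quasi-likelihood), TMM or total-count scaling, a count minimum of 10, no batch term, a replicate block, centring on the median of peaks within 5 Mb, windows of 10 and 100 kb, stricter thresholds and leaving out each library. No pair of libraries of the same group agreed within sampling noise (chi-square per degree of freedom at least 1.29), and pairs across the groups were not compared in this way. The RefSeq promoter table held 26 windows for 8 of the 10 genes, not for ABCG1 and MSR1.

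The members and lists were chosen with earlier results of these data known. Named for each gene were the peak nearest to a start, the strongest peak by mean count and the gained and lost peak with the smallest adjusted p, and from each wider list the 3 genes with the smallest adjusted p. A few named results are not reported here. Peaks outside this rule, named or given by their values, were chosen after these were seen.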

Additional observations from a re-analysis of the deposited data

Results flagged for a closer look

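Groups of 6 libraries were examined at the named peaks and in the sums over each locus, which share counts. Of these 72 groups 3 held a library far from the other 5, where chance gives about 1 in 20 groups (3.6). At the PLIN2 start peak, control replicate 1 was the highest with 102.7 normalised counts, against 40.0 to 61.1 in the other control libraries. At the ABCA1 peak nearest to the start, the same library was the highest with 64.97, against 20.8 to 37.2. Both peaks lie at starts or within 1 kb of them, and this library had the highest signal at start peaks among the controls (0.345 on the log2 scale); its part in these values was not tested. At the lost RARA peak, control replicate 4 was the lowest with 8.672, against 16.8 to 19.9.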

How the results depend on the processing

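The 21 called member peaks became 23 with edgeR, which called all 21, and 19 to 22 under the other scalings, no batch term and regional centring. With at least 10 counts in every library 10 were called, all of them among the 21. Of those 21, 8 were not tested under it and 3 were tested and lost the call, among them NR1H3 peak 2 (adjusted p = 0.0578) and RXRA peak 4 (0.0930). The untested ones include the ABCG1, APOE and NR1H3 gains over 2-fold, with lowest raw counts of 2, 7 and 8. They also include the RARA gain and the ABCA1 loss over 2-fold, with lowest raw counts of 3 and 4. The 10 kb window gave 12 of 29 peaks and the 100 kb window 30 of 73, an adjusted p under 0.01 gave 11 and a fold change over 2 gave 7. Leaving out 1 library gave 15 to 22 (11 of the 21 kept in all 12 fits), 1 to 3 in batch 1 (main 4, edgeR 9) and 4 to 9 in batch 2 (main 12). The wider lists had 102 calls, 79 to 97 without 1 library, 64 with the 10-count minimum and 92 to 119 (edgeR) under the other settings without a block. Same-numbered libraries correlated by -0.0827 to 0.236, with 1 of 6 pairs over 0.1. Control replicate 1 and knockdown replicate 2, of the same batch, correlated by 0.384. Control replicate 3 is of batch 1 and knockdown replicate 3 of batch 2. Such correlations cannot decide whether samples were paired, and the main fit did not pair them. With a replicate block 14 member peaks and 79 wider peaks were called. Shares of all peaks were not taken for the block, the other scalings, no batch term, the other windows or single omissions. They were also not taken for edgeR within a batch. Changes in these counts cannot be told from changes over the whole table. No called named peak changed sign. Uncalled ones did: RARA peak 4, the strongest, went to 0.029 with the 10-count minimum and -0.098 to 0.030 over single omissions (above 0 without knockdown replicate 1), and ABCA1 peak 3, near the start, to -0.078 without the batch term, -0.027 with the replicate block and -0.044 to 0.18 over single omissions. Without the strongest peak, the sum turned to 0.93 at CD36, where the distal peak alone is left, and to -0.24 at RXRA. Of 179 other results at named peaks 167 kept direction and call. Causes were not tested. Low counts limit the weakest peaks, such as ABCG1 with 2 to 7 raw counts in control libraries.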
